A study of Mus musculus with 19 samples.

Results

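Under a low fat diet, 4 livers labelled as knockouts of PPARγ in hepatocytes (LF-KO) were compared with 4 control livers (LF-C), across all genes listed for these 8 of the series' 19 RNA sequencing libraries. The libraries were taken by their titles, 1 per mouse, and the read counts covered 21811 genes, of which 13056 passed a filter on low counts and were tested. The mice were adult and are called healthy in the labels, and both groups shared the diet, named LFCF or low fat. Control animals carry no other description than control mouse. The way the knockout was induced, the exons removed, the strain, the sex and the weeks on the low fat diet are not stated in the labels. The mice of the HF groups had their knockout induced before 24 weeks on the HFCF diet (HF), which is rich in cholesterol, fructose and fat. Those HF mice, 5 labelled HF-C and 6 labelled HF-KO and all with steatohepatitis by their labels, serve below only to show where the low fat comparison differs. The question of the comparison, per the series design, is what loss of PPARγ in hepatocytes does to liver gene expression when no fatty liver diet is given.

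PPARγ is a nuclear receptor that binds DNA as a pair with RXR, at repeats of a short half-site, and switches on genes of fatty acid uptake, triglyceride synthesis and the coats of lipid droplets. It is most abundant in fat tissue and low in healthy liver, where its relative PPARα is the main form, and it rises in hepatocytes of steatotic mouse liver. Whole liver RNA also carries the transcripts of Kupffer cells, endothelial cells and other cells in which a hepatocyte knockout leaves the gene in place. In such bulk samples fewer cells of a type and less RNA per cell cannot be told apart.

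The promoters of 4 genes are shown first, because they belong to 3 of the 5 genes that one of the tests called, Mup17, Mup15 and Cyp3a59, and to Cyp3a25, a close relative of Cyp3a59. Each window runs from 250 bases before to 50 bases after the gene's start, on the gene's own strand, from RefSeq on GRCm38.p6. Mup15 lies at chr4:61439655-61439954 on the minus strand, Mup17 at chr4:61595783-61596082 on the minus strand, Cyp3a25 at chr5:146009568-146009867 on the minus strand and Cyp3a59 at chr5:146079008-146079307 on the plus strand. Capitals mark a match, with at most 2 mismatches, to the repeat to which PPARγ and RXR bind, AGGTCANAGGTCA. The windows of Mup15 and Mup17 held no such match and carry no capitals.
Mup15: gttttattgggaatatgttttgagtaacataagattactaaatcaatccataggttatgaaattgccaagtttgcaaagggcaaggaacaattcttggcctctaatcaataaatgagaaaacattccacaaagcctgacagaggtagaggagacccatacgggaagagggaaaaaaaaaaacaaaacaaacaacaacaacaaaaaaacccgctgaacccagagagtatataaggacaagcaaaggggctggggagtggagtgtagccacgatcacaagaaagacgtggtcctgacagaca
Mup17: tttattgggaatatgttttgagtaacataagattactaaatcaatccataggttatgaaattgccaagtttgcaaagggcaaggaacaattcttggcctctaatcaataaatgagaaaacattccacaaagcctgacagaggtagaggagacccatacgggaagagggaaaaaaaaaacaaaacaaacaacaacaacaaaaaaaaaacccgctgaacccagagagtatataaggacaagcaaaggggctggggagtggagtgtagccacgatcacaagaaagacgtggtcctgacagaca
Cyp3a25: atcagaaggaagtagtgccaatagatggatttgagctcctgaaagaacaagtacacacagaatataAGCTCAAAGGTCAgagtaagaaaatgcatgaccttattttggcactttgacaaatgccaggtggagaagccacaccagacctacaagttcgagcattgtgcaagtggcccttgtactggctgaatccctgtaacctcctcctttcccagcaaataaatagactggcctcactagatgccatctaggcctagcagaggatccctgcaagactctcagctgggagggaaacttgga
Cyp3a59: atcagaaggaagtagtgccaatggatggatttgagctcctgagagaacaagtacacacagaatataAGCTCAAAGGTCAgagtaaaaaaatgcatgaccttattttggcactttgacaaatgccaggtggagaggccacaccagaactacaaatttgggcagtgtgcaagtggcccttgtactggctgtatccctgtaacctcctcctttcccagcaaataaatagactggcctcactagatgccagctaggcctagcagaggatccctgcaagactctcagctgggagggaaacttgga
The Mup15 and Mup17 windows matched in 297 of 297 aligned bases, leaving gaps aside, and the Cyp3a59 and Cyp3a25 windows in 289 of 300 (96.3%). Both Cyp3a windows held the repeat with 1 mismatch, 184 bases before the start counted to the first base of the match. Searching both strands, 0.554% of all 32851 promoter windows in the RefSeq table held the repeat with at most 1 mismatch, 3.86% with at most 2 and 0.0396% exactly. A match describes these letters and shows no binding.

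At the level of the whole liver, the library labelled LF-C-2 stood apart from the others. It held 20711869 counted reads against 11437875 to 17014218 in the other 7 libraries, its 10 most abundant genes took 25.5% of the reads against 15.8% to 20.2%, and mitochondrially encoded genes took 1.64% against 4.02% to 5.78%. The first principal component of log2 CPM, with 64.2% of the variance, placed LF-C-2 at −121 and the other libraries between −27.4 and 33.1. Each library's deviation from the other libraries of its group fell with gene length in LF-C-2 (Spearman's rho −0.51 across genes) and LF-C-1 (−0.23) and rose with it in LF-C-3 (0.50) and LF-C-4 (0.48). In LF-KO it ranged from −0.34 in LF-KO-3 to 0.38 in LF-KO-1, so trends of both signs stood in both groups, a description across genes that are not independent replicates. CPM below is the read count relative to the library's total after TMM scaling (trimmed mean of M values, which sets most genes to no change), and values are given as mean ± SD. The TMM factor was 0.699 for LF-C-2 and 0.978 to 1.11 for the other libraries, so the scaling raised the CPM of LF-C-2 beside theirs.

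Pparg itself, at 6:115361221-115490401 in the coordinates of the deposited table, was not lower in the livers labelled as knockouts. Its level was 16.7, 7.06, 5.29 and 11.1 CPM in the LF-C livers and 31.2, 36.4, 11.05 and 10.3 CPM in the LF-KO livers, here and below in the order of their replicate numbers. LF-KO-1 and LF-KO-2 lay above every control, whereas LF-KO-3 and LF-KO-4 lay within the control range. The means were 10.04 ± 5.05 CPM in LF-C and 22.2 ± 13.5 CPM in LF-KO, a log2 fold change of 1.15 ± 0.49 (SE) with an adjusted p of 0.704 by edgeR. An exact permutation test of log2(CPM + 1), two-sided, gave p = 0.2, where 70 splits allow no p below 0.0286. The count covers the whole gene and so does not show whether a part of it is missing, and the labels LF-KO and LF-C are used below as the submitters gave them. In the HF mice Pparg was called higher in HF-KO, at 76.0 ± 29.2 against 27.4 ± 4.87 CPM (log2 fold change 1.47 ± 0.23, adjusted p = 0.00276 by edgeR).

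**Figure D1:**
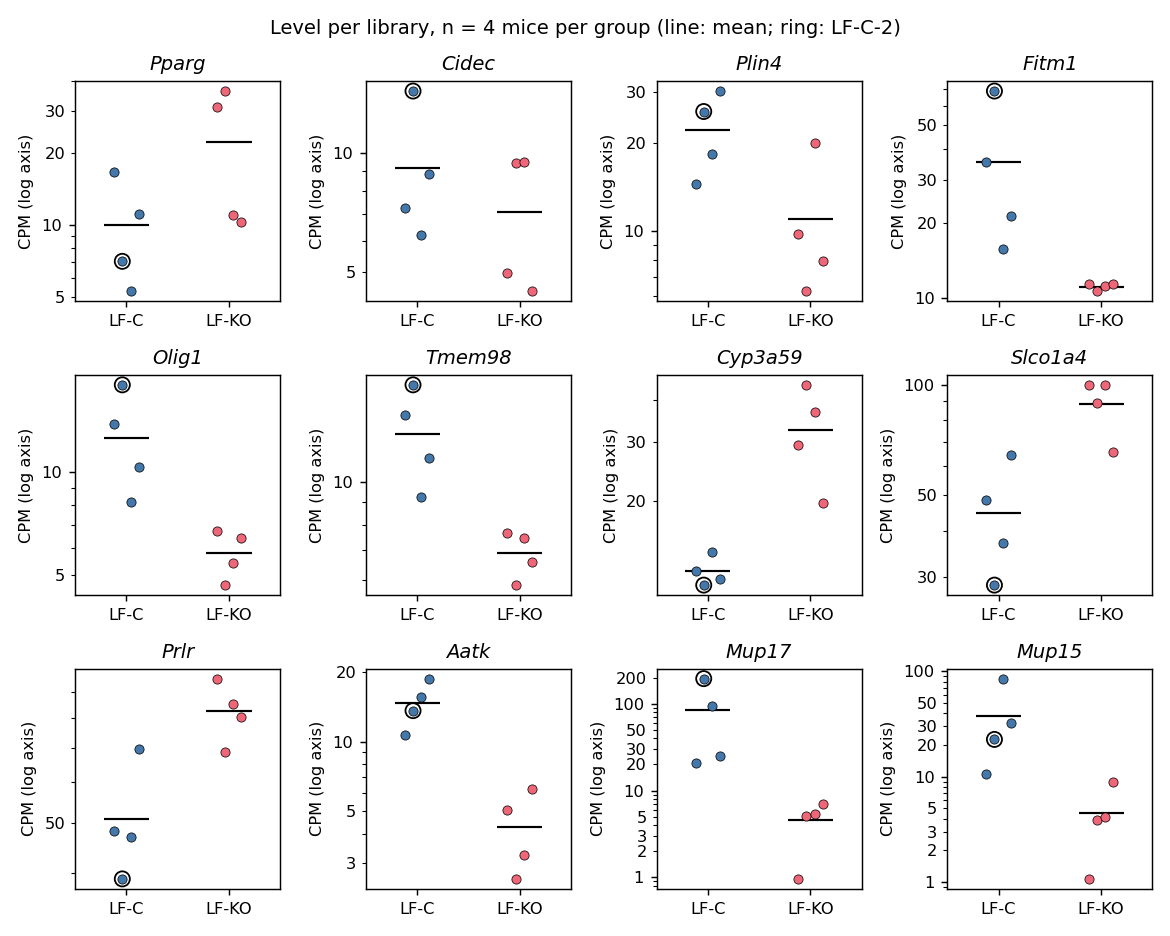
Level of 12 genes in each library in CPM on a log axis, blue for LF-C and red for LF-KO, with a line at the mean of 4 mice and a ring around LF-C-2. Pparg, Cidec and Plin4 overlap between the groups, while Cyp3a59 lies between 11.3 and 14.2 CPM in LF-C and between 19.8 and 44.3 CPM in LF-KO.

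Among the partners of PPARγ, no gene of the receptor list was called. Of the 18 receptors and coactivators tested, 10 had a positive and 8 a negative log2 fold change, with a median of 0.10 beside −0.03 over all genes tested. At an unadjusted p under 0.05, which 156 of all genes reached with a higher mean in LF-KO (1.19%) and 398 with a lower mean (3.05%), stood Pparg on the higher side and Rxra and Rxrb on the lower side. Rxra, the main RXR of liver, was at 604, 932, 531 and 676 CPM in LF-C and 552, 325, 375 and 548 CPM in LF-KO, groups that overlapped (log2 fold change −0.61 ± 0.26). For levels set side by side between genes, the deposited FPKM values, which divide by gene length, were 5.25 ± 2.89 for Pparg in LF-C and 12.9 ± 8.24 in LF-KO, 37.2 ± 26.8 and 44.5 ± 20.4 for Ppara, and 130 ± 13.8 and 97.1 ± 27.4 for Rxra.

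Over the whole table, edgeR's quasi-likelihood test called 0 of 13056 genes (0%) at an adjusted p under 0.05. The smallest adjusted p was 0.576, for 1700023H06Rik, and 554 genes (4.24%) had an unadjusted p under 0.05. limma-voom with quality weights also called 0 genes, with 541 at an unadjusted p under 0.05. Its smallest adjusted p, 0.0517, lay just over the threshold. DESeq2 on the same counts called 5 of 21743 genes (0.023%), the same 5 genes that the authors' deposited table calls: Mup17, Aatk and Mup15 lower and 1700023H06Rik and Cyp3a59 higher in LF-KO. In the authors' deposited table their log2 fold changes are −1.80, −1.41 and −1.50 and 1.74 and 1.18, in that order. The DESeq2 fit made here gave −4.17, −1.78 and −3.05 and 3.44 and 1.40. The deposited sizes are smaller for all 5 and are not the same measure as the values below, and the reason was not tested. Groups did not overlap for 224 genes above (1.72%) and 185 genes below (1.42%) in LF-KO. Over all genes the median log2 fold change was −0.03 with TMM scaling and 0.10 with library size alone.

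**Figure D2:**
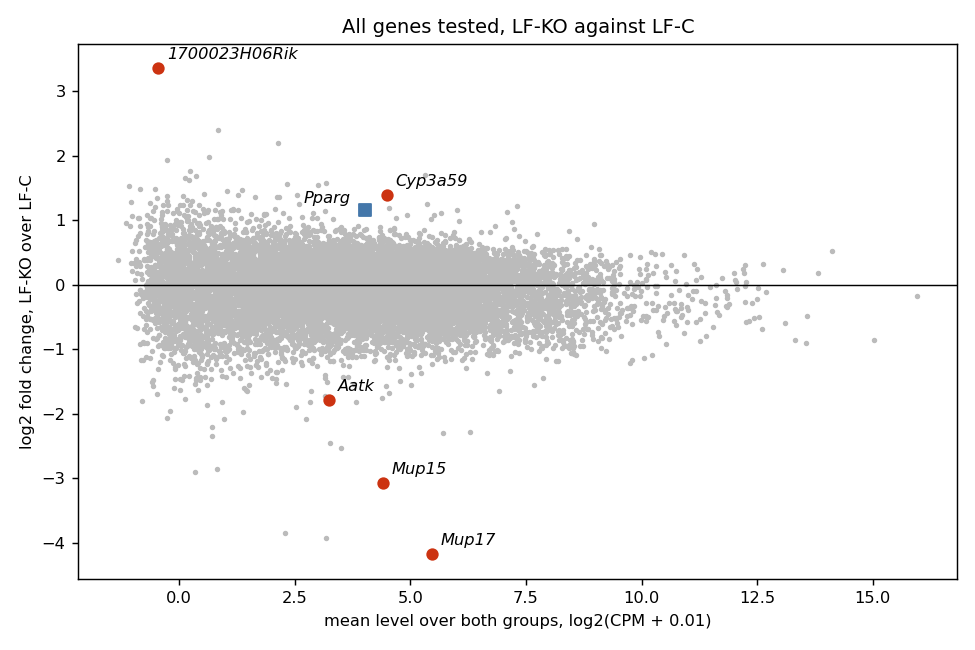
Log2 fold change of LF-KO over LF-C for each of the 13056 genes tested, against the mean level over both groups as log2(CPM + 0.01). Red points are the 5 genes called by DESeq2 and in the authors' deposited table, and the blue square is Pparg at 1.15.

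Of these 5 genes, Cyp3a59 was the one with the narrowest controls. Cyp3a59 belongs to the CYP3A cytochromes, which oxidise drugs and steroids. Its level was 12.4, 11.3, 14.2 and 11.8 CPM in LF-C and 29.4, 44.3, 36.7 and 19.8 CPM in LF-KO. Every LF-KO library lay above every control, and the log2 fold change was 1.39 ± 0.26 (adjusted p 0.704 by edgeR and 0.00602 by DESeq2). Cyp3a25, whose transcript matches that of Cyp3a59 in 1931 of 1990 aligned bases (97.0%), was at 398, 221, 349 and 406 CPM in LF-C and 552, 675, 844 and 572 CPM in LF-KO. Here too the groups did not overlap, with a log2 fold change of 0.94 ± 0.25, and reads could have been divided between the pair by the counting, so the share of each is uncertain. All 4 CYP3A genes tested had a positive log2 fold change, as had 6196 of all 13056 genes tested. Cyp3a11 was at 443 ± 177 and 646 ± 298 CPM and Cyp3a13 at 142 ± 21.7 and 158 ± 17.1 CPM, both overlapping. In the HF mice Cyp3a11 was called in the opposite direction (log2 fold change −0.69 ± 0.19, adjusted p = 0.0336 by edgeR). There Cyp3a59 (0.70 ± 0.21), Cyp3a25 (0.45 ± 0.17) and Cyp3a13 (0.14 ± 0.17) were positive and not called.

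Aatk encodes a membrane kinase known mainly from nerve cells. Its level was 10.7, 13.6, 15.6 and 18.7 CPM in LF-C and 5.08, 2.55, 3.24 and 6.21 CPM in LF-KO, with no overlap. The log2 fold change was −1.78 ± 0.32 (adjusted p 0.704 by edgeR and 0.00226 by DESeq2). 1700023H06Rik, a noncoding transcript at 13:80884224-80885524 on the minus strand, was at 0.269, 0.0692, 0.122 and 0.0589 CPM in LF-C and 1.47, 1.25, 1.06 and 1.47 CPM in LF-KO. It was low in all libraries and did not overlap between the groups (log2 fold change 3.35 ± 0.49). Arrdc3 overlaps it on the other strand. Since the libraries carry no strand information, reads from bases that both genes share cannot be assigned by strand. Overlaps here are of whole gene spans, introns included, and shared exons were not looked for. The same limit holds for Plin4, Cidea, Agpat2, Gpd1, Mogat1, Fitm1, Gpr182, Slc9a9, Lacc1, Srebf1, Csf1r, Stab1, Eng, Clec4g, Cx3cr1 and Cxcl10, each of which overlaps a gene on the other strand.

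Mup17 and Mup15 belong to the major urinary proteins, small lipid-binding carriers of pheromones that the mouse liver secretes in large amounts. Mup17 was at 20.8, 195, 94.4 and 24.9 CPM in LF-C and 0.959, 5.09, 5.43 and 7.01 CPM in LF-KO. The controls spread widely and still lay above every LF-KO library, with a log2 fold change of −4.18 ± 0.83 (adjusted p 0.704 by edgeR and 3.84e-05 by DESeq2), or −3.34 without LF-C-2. Mup15 was at 10.5, 22.6, 85.4 and 32.6 CPM in LF-C and 1.07, 3.90, 4.17 and 8.94 CPM in LF-KO, again without overlap (log2 fold change −3.07 ± 0.72). Their transcripts match in 911 of 925 aligned bases (98.5%), and that of Mup17 matches Mup11 in 918 and Mup7 in 914 of 927 bases, so counts of single Mup genes are uncertain.

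Of the 39 Mup-named genes listed, 22 were tested, 20 of them with a negative and 2 with a positive log2 fold change, and none was called by edgeR. Every LF-KO library lay below every control for 4 of the 22, Mup17, Mup15, Mup-ps12 and Mup18, where 1.42% of all genes did so, and the other 18 overlapped. Mup-ps12 was at 0.716, 3.67, 3.04 and 1.41 CPM in LF-C and 0, 0.325, 0.397 and 0.467 CPM in LF-KO (log2 fold change −2.90 ± 0.74, adjusted p 0.704 by edgeR and 0.181 by DESeq2). Mup18 was at 0.716 to 2.35 CPM in LF-C and 0 to 0.662 CPM in LF-KO (log2 fold change −2.07 ± 0.73), so both were low in all libraries. Mup11, shown like Mup7 and Mup3 for its likeness in sequence or its level and chosen after the values were seen, was at 66.0, 283, 77.6 and 92.9 CPM in LF-C and 4.63, 2.60, 16.7 and 83.3 CPM in LF-KO. LF-KO-4 lay within the control range for Mup11 and for Mup7, which was at 495 CPM in LF-KO-4 and at 39.8, 33.5 and 153 CPM in the other LF-KO livers. Without LF-KO-4 the log2 fold change of Mup11 moved from −2.28 to −4.02 and that of Mup7 from −1.18 to −2.44. Without LF-C-2, the highest control for Mup11, that of Mup11 moved the other way, to −1.56. Over all single libraries left out, the range was −4.02 to −1.56 for Mup11 and −2.44 to −0.84 for Mup7. Mup3, the member with the most reads, was at 10040, 28140, 10310 and 8449 CPM in LF-C and 6419, 8431, 14210 and 11610 CPM in LF-KO. The groups overlapped, and the sign of its log2 fold change turned from −0.49 to 0.09 without LF-C-2. Summed over all 39 genes, the family took 12102 to 40607 CPM in LF-C, the highest in LF-C-2, and 9498 to 19469 CPM in LF-KO.

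The genes of fat storage that PPARγ is known to switch on, 24 of them in a list, had mostly small differences on the low fat diet. None of the 19 members tested was called, 15 had a negative and 4 a positive log2 fold change, and the median was −0.28, or −0.15 without LF-C-2. Groups overlapped for all 19. The other members, Cidea, Plin1, Aqp7, Adipoq and Cfd, did not pass the filter on low counts. Plin1 had reads in LF-C-2 alone, at 1.31 CPM, and Adipoq was at 3.46 CPM in LF-C-2 and at most 0.118 CPM in any other library. Cidea reached 1.38 CPM in LF-C-2 and at most 0.271 CPM elsewhere, Cfd 3.40 and 9.89 CPM in LF-C-1 and LF-C-2 and at most 0.0662 CPM elsewhere, and Aqp7 at most 0.122 CPM.

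Of the coats and shapers of lipid droplets, Plin4 had the largest difference. Plin4, a droplet coat protein best known from fat tissue, was at 14.5, 25.7, 18.4 and 30.2 CPM in LF-C and 9.76, 6.23, 20.1 and 7.94 CPM in LF-KO. LF-KO-3 lay within the control range and the other LF-KO livers below every control. The log2 fold change was −1.01 ± 0.38, with an unadjusted p of 0.0248 and an adjusted p of 0.704 by edgeR. Cidec, which drives the fusion of lipid droplets, was at 7.25, 14.3, 6.21 and 8.84 CPM in LF-C and 4.96, 9.42, 9.46 and 4.47 CPM in LF-KO. These ranges overlapped widely (log2 fold change −0.37 ± 0.35, or −0.069 without LF-C-2). Plin2, the main droplet coat of hepatocytes, was at 526 ± 62.1 and 533 ± 96.9 CPM, a log2 fold change of 0.02 ± 0.21, and Plin5, which tethers droplets to mitochondria, was at 67.7 ± 33.1 and 65.1 ± 34.1 CPM. The signs of Plin2 and Plin5 turned when single libraries were left out, and that of Plin5 also with library size alone. G0s2, the inhibitor of the lipase Pnpla2, was at 199 ± 55.0 and 122 ± 56.1 CPM, Pnpla2 at 119 ± 54.6 and 73.9 ± 21.3 CPM, and the droplet protein Hilpda at 2.13 ± 0.87 and 2.84 ± 0.15 CPM, all overlapping.

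Enzymes of triglyceride synthesis and fatty acid uptake gave no call either. Agpat2, which adds the second fatty acid to the glycerol backbone, was at 247, 453, 197 and 174 CPM in LF-C and 148, 172, 191 and 158 CPM in LF-KO, an overlap by LF-KO-3 alone (log2 fold change −0.68 ± 0.30, or −0.30 without LF-C-2). Mogat1, a monoacylglycerol acyltransferase, was at 1.51 ± 0.76 and 0.791 ± 0.598 CPM, Dgat2, which completes triglyceride, at 697 ± 49.8 and 653 ± 48.0 CPM, Gpd1 at 311 ± 195 and 202 ± 37.7 CPM, and Lpin1 at 165 ± 191 and 136 ± 60.3 CPM. Lipid uptake was represented by Cd36 at 81.4 ± 21.1 and 115 ± 80.5 CPM, Lpl at 25.3 ± 22 and 23.4 ± 10.3 CPM, Vldlr at 3.18 ± 0.98 and 3.04 ± 1.23 CPM, and Fabp4 at 12.3 ± 10.3 and 8.87 ± 4.95 CPM. LF-C-2 was the highest control for Lpl, at 57.8 CPM, and for Fabp4, at 27.7 CPM, and without it the log2 fold change of Lpl turned from −0.12 to 0.69 and that of Fabp4 from −0.47 to 0.30. Pck1, which makes phosphoenolpyruvate for glucose and glycerol, was at 1667 ± 870 and 1731 ± 577 CPM, the uncoupling protein gene Ucp2 at 42.8 ± 21.2 and 27.4 ± 3.30 CPM, and Angptl4, an inhibitor of Lpl, at 148 ± 18.5 and 126 ± 38.7 CPM. Without LF-C-2 the log2 fold change also shrank from −0.62 to −0.088 for Gpd1, from −0.64 to −0.24 for Ucp2 and from −0.69 to −0.32 for Pnpla2. A repeat with at most 2 mismatches lay in 5 of the 23 promoter windows found for 18 list genes (21.7%), beside 3.86% of all windows. Windows of 1 gene can share bases, and counted by gene it was 4 of 18, beside 1190 of 27025 genes. Mogat1 was among the 4, and no repeat lay in the windows of Cidec or Plin4. Enrichment was not tested.

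The same genes gave another picture in the HF mice, which share no animal with the low fat groups. There edgeR called 1360 of 13915 genes (9.77%), 605 higher (4.35%) and 755 lower (5.43%) in HF-KO. Of the 19 list members tested on the low fat diet, 10 were called lower and 0 higher on HF. Their median log2 fold change on HF was −0.76, beside 0.03 over all genes tested on the low fat diet. The 10 are Cidec, Plin2, Plin4, Plin5, Mogat1, Lpl, Gpd1, Pnpla2, Pck1 and Ucp2. This count leaves out the members that failed the low fat filter. Of those, Cidea was at 15.8 to 48.4 CPM in HF-C and at most 0.33 CPM in HF-KO. Aqp7 was at 4.64 to 8.52 CPM in HF-C and 0.256 to 1.02 CPM in HF-KO, and Cfd at 3.02 to 14.2 and at most 0.192 CPM. HF values of Plin1 and Adipoq are not given. Cidec stood at 135 to 239 CPM in HF-C (median 193) and 8.36 to 22.6 CPM in HF-KO. Plin4 stood at 104 to 149 CPM in HF-C and 3.36 to 8.45 CPM in HF-KO.

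The difference of the knockout effect between diets, HF minus LF, was tested directly in a fit of all 19 libraries. It was called for 29 of 14391 genes (0.202%), 18 with a more positive and 11 with a more negative effect on HF. Both Cidec (−3.49 ± 0.43, adjusted p = 0.000765 by edgeR) and Plin4 (−3.31 ± 0.42, adjusted p = 0.000765) were among them. No other of the 19 target list members tested on the low fat diet was. For Cidea, Plin1, Aqp7, Adipoq and Cfd the difference between diets was not looked up. With all 19 libraries on 1 scale, the mean of Cidec was 10.4 and 7.99 CPM in LF-C and LF-KO against 182 and 12.4 CPM in HF-C and HF-KO, and that of Plin4 was 25.2 and 12.4 CPM against 118 and 5.81 CPM, so the HF-C livers stood far above the 3 other groups. The other genes with the smallest adjusted p were Cyp2c29, a cytochrome of fatty acid and drug oxidation (1.99 ± 0.28), Fam83a (−3.10 ± 0.48) and Susd4 (2.37 ± 0.39). On the low fat diet their log2 fold changes were −0.22 ± 0.21, 0.96 ± 0.41 and −0.31 ± 0.32, and none was called. Mup7 was called as well (6.09 ± 1.21, adjusted p = 0.0379 by edgeR), at 409 ± 205 CPM in LF-C and 180 ± 217 CPM in LF-KO, whereas on HF it was at 3.11 ± 1.60 CPM in controls and 95.3 ± 93.3 CPM in HF-KO. Counts of this test ranged from 7 to 48 genes when single libraries were left out.

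**Figure D3:**
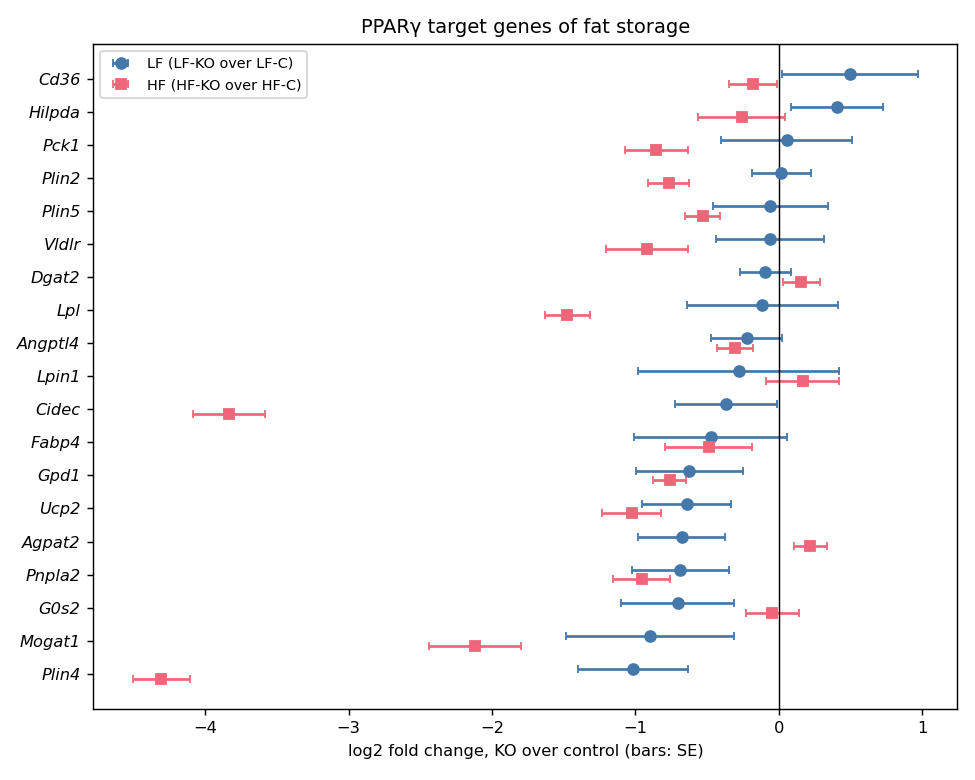
Log2 fold change ± SE of the 19 tested target genes, KO over control, blue circles for the low fat groups and red squares for the HF groups. Cidec and Plin4 lie at −0.37 and −1.01 on the low fat diet and at −3.83 and −4.31 on HF.

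Next, the 20 genes with the smallest unadjusted p on the low fat diet, 10 in each direction from those that averaged 5 CPM or more in a group, were followed into the HF mice. None of the 20 passed edgeR's adjustment on the low fat diet, so their low fat values are a description. In the HF mice 15 of the 20 had the same sign, 6 of the 10 higher and 9 of the 10 lower genes. The share of all genes that kept their sign was not measured. On HF 5 of the 20 were called in the same direction and 0 in the opposite one, where 9.77% of all genes were called. They were 2 of the 10 higher genes, beside 4.35% of all genes called higher, and 3 of the 10 lower genes, beside 5.43% called lower. The 5 are Fitm1, Olig1 and Tmem98, lower in KO, and Slco1a4 and Prlr, higher in KO.

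Fitm1, a protein of the endoplasmic reticulum that helps to form lipid droplets, was at 35.5, 68.7, 15.7 and 21.5 CPM in LF-C and 11.3, 10.6, 11.1 and 11.3 CPM in LF-KO. The LF-KO livers were nearly alike and lay below every control (log2 fold change −1.67 ± 0.41). On HF its levels were 44.5 ± 8.09 in HF-C and 18.9 ± 3.90 CPM in HF-KO (log2 fold change −1.24 ± 0.16, adjusted p = 0.000788 by edgeR). Olig1, a transcription factor known from the making of oligodendrocytes, was at 13.9, 18.1, 8.21 and 10.4 CPM in LF-C and 6.71, 4.66, 5.43 and 6.41 CPM in LF-KO. No LF-KO library reached a control (log2 fold change −1.12 ± 0.28), and on HF the log2 fold change was −1.49 ± 0.17 (adjusted p = 0.000237 by edgeR). Tmem98, a membrane protein, was at 14.1, 16.5, 9.25 and 11.3 CPM in LF-C and 7.67, 5.85, 7.48 and 6.61 CPM in LF-KO. The groups were again separate (log2 fold change −0.89 ± 0.24), and on HF the log2 fold change was −1.15 ± 0.12 (adjusted p = 0.000145 by edgeR).

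On the higher side, Slco1a4, a transporter that takes bile acids and other organic anions into the cell, was at 48.6, 28.5, 37.2 and 64.3 CPM in LF-C and 99.8, 88.9, 99.4 and 65.4 CPM in LF-KO. LF-KO-4 and LF-C-4 nearly met and the groups did not overlap (log2 fold change 0.99 ± 0.28). On HF the log2 fold change was 0.87 ± 0.20 (adjusted p = 0.0177 by edgeR). Prlr, the receptor of prolactin, was at 48.2, 38.9, 47.0 and 69.8 CPM in LF-C and 95.5, 68.8, 85.2 and 80.3 CPM in LF-KO. LF-KO-2 fell just under LF-C-4 (log2 fold change 0.69 ± 0.23), and on HF the log2 fold change was 0.83 ± 0.15 (adjusted p = 0.00608 by edgeR). For none of these 5 genes was the difference between diets called (adjusted p from 0.634 to 0.891), which does not show that the effects were alike.

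**Figure D4:**
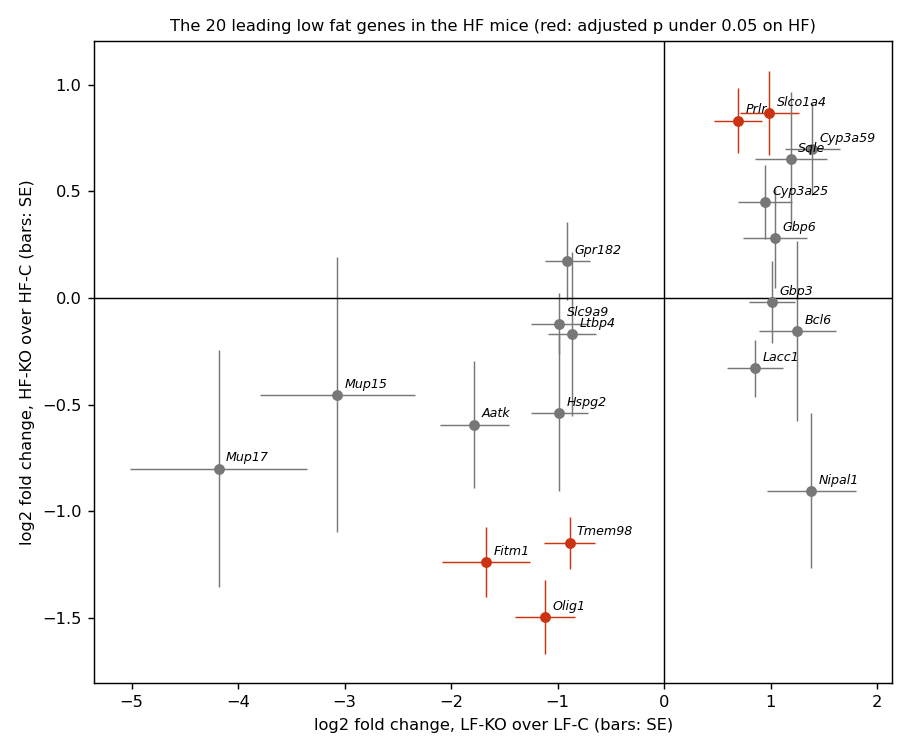
Log2 fold change ± SE of the 20 leading low fat genes, on the low fat diet along the horizontal axis and in the HF mice along the vertical axis, KO over control. The red points are the 5 genes called on HF, and 15 of 20 points lie in the quadrants of equal sign.

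The other leading genes that were higher in LF-KO were Gbp3, Sqle, Bcl6, Gbp6, Nipal1 and Lacc1, beside the CYP3A pair. Bcl6, a transcriptional repressor, was at 39.2, 15.4, 26.1 and 16.3 CPM in LF-C and 61.0, 40.5, 42.3 and 86.1 CPM in LF-KO, without overlap (log2 fold change 1.25 ± 0.36), and at −0.16 ± 0.42 on HF. Lacc1, an enzyme of purine metabolism in macrophages, was at 5.31 ± 1.30 and 9.60 ± 2.10 CPM without overlap, and Nipal1, a magnesium transporter, at 3.23 ± 1.00 and 8.41 ± 4.45 CPM with overlap. Both had a negative log2 fold change on HF, −0.33 ± 0.13 for Lacc1 and −0.90 ± 0.36 for Nipal1, and neither the HF change nor the difference between diets was called. Lower in LF-KO were Gpr182, Ltbp4, Slc9a9 and Hspg2, beside the genes given above. Gpr182, a receptor of endothelial cells, was at 38.8, 37.6, 37.5 and 23.8 CPM in LF-C and 20.2, 17.7, 18.3 and 17.1 CPM in LF-KO, with no overlap (log2 fold change −0.91 ± 0.21). Ltbp4, which holds latent TGFβ in the matrix, was at 63.3 ± 8.06 and 34.7 ± 9.62 CPM, Slc9a9, a sodium and proton exchanger, at 5.59 ± 1.2 and 2.81 ± 0.59 CPM, and Hspg2, the basement membrane protein perlecan, at 41.6 ± 11.2 and 21.0 ± 5.65 CPM. Of these, only Hspg2 overlapped between the groups.

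In the pathways of lipid metabolism beside the target list, no gene was called by edgeR. Cholesterol synthesis had 17 positive and 7 negative members of 24, with a median of 0.21, and 3 of them, Sqle, Hmgcs1 and Cyp51, had an unadjusted p under 0.05 on the higher side. Sqle, which makes squalene epoxide, was at 20.2, 7.13, 13.0 and 16.2 CPM in LF-C and 31.5, 46.6, 23.1 and 27.6 CPM in LF-KO. The groups did not overlap (log2 fold change 1.19 ± 0.34). Hmgcs1 was at 79.2 ± 30.8 and 148 ± 65.3 CPM and Cyp51 at 57.5 ± 18.1 and 85.4 ± 15.4 CPM, both overlapping. De novo lipogenesis had 11 positive and 6 negative members of 17 (median 0.15), and Srebf1, the transcription factor of that pathway, was at 483, 213, 231 and 218 CPM in LF-C and 160, 156, 201 and 171 CPM in LF-KO. Every LF-KO library lay below every control (log2 fold change −0.73 ± 0.29, unadjusted p 0.0308 by edgeR), and without LF-C-1, the highest control, the log2 fold change was −0.36. Fatty acid oxidation, the domain of PPARα, had 16 positive and 10 negative members of 26 (median 0.09), with Cyp4a10, an omega-oxidation enzyme, at 250 ± 109 and 445 ± 148 CPM.

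Bile acid, drug and sex-biased genes showed the same picture of single members. Of 19 bile acid genes, 7 were positive and 12 negative (median −0.09), with Abcc3, an exporter of the basolateral membrane, at 249 ± 45.7 and 152 ± 41.1 CPM and Abcg8, which exports sterols into bile, at 162 ± 23.6 and 106 ± 21.7 CPM. Abcg8 did not overlap between the groups and its neighbour Abcg5 overlaps it on the other strand. Of 17 drug metabolism genes tested, 9 were positive and 8 negative (median 0.03). Cyp2b9, a female-biased cytochrome, was at 17.3, 20.4, 27.5 and 9.72 CPM in LF-C and 77.1, 127, 29.2 and 9.54 CPM in LF-KO, so that LF-KO-4 lay at the lowest control. Gstp1 was at 1618 ± 1182 and 761 ± 221 CPM, with LF-C-2 at 3270 CPM. Of 19 sex-biased and growth hormone genes tested, 7 were positive and 12 negative (median −0.17).

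Interferon-induced and chemokine genes were mostly on the higher side, with no call. Of 20 interferon genes, 14 were positive and 6 negative (median 0.21, or 0.54 without LF-C-2), and Gbp3, Gbp6, Iigp1 and Mx1 had an unadjusted p under 0.05. Gbp3, a guanylate-binding protein of the defence against microbes inside cells, was at 5.82, 5.95, 6.57 and 8.13 CPM in LF-C and 11.1, 14.9, 12.3 and 15.2 CPM in LF-KO. No control reached an LF-KO library (log2 fold change 1.01 ± 0.22), and its neighbour Gbp5 overlaps it. Gbp6 was at 16.9 ± 3.46 and 34.7 ± 12.5 CPM with overlap, and Iigp1 at 251 ± 64.8 and 368 ± 43.2 CPM without. In the HF mice, Gbp3 had a log2 fold change of −0.02 ± 0.19. Among 16 chemokines and cytokines tested, 10 were positive and 6 negative (median 0.20), with Cxcl10 at 1.75 ± 0.79 and 4.50 ± 2.25 CPM.

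Markers of the liver's other cells were checked list by list, and edgeR called 0 members of any list. Kupffer cell markers had 0 positive and 12 negative members of 12, with a median of −0.80 and 3 at an unadjusted p under 0.05, Clec4f, Csf1r and C1qb. Clec4f, a lectin of Kupffer cells, was at 160, 419, 146 and 104 CPM in LF-C and 108, 111, 95.4 and 85.9 CPM in LF-KO. LF-C-2 was far the highest and the groups overlapped by LF-C-4. Without LF-C-2 the log2 fold change moved from −1.05 to −0.45 for Clec4f, from −1.04 to −0.67 for Csf1r and from −1.30 to −0.29 for C1qb. Without LF-C-2 the median of the list was −0.30, and with library size alone and all libraries it was −0.55. The summed level of the list was 441 to 642 CPM in the other controls, 1767 CPM in LF-C-2 and 330 to 533 CPM in LF-KO.

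Endothelial markers had nearly the same median without that library. Of 14 sinusoidal endothelial markers, 1 was positive and 13 negative, with a median of −0.48, or −0.51 without LF-C-2, and 4 had an unadjusted p under 0.05, Stab1, Tie1, Eng and Clec4g. Stab1, a scavenger receptor of liver sinusoids, was at 75.3, 88.4, 77.2 and 54.8 CPM in LF-C and 54.0, 23.6, 38.5 and 39.6 CPM in LF-KO, groups that did not overlap by a narrow margin (log2 fold change −0.92 ± 0.27). The log2 fold change of Eng shrank from −0.94 to −0.53 without LF-C-2, and that of Clec4g shrank to −0.56. The summed level of the list was 420 to 598 CPM in LF-C and 285 to 449 CPM in LF-KO. The part of endothelial content in the values of Gpr182, Hspg2 and Ltbp4 was not tested.

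Several other lists depended on LF-C-2 to differing degrees, stellate cell markers the least. Krt19, a keratin of bile ducts, was at 64.1 CPM there and 0.791 to 1.30 CPM in the other controls, Acta2, the actin of myofibroblasts and smooth muscle, at 51.5 CPM and 3.49 to 6.48 CPM, Cd74, the invariant chain of MHC class II, at 887 CPM and 85.9 to 129 CPM, and Hba-a1, a haemoglobin chain, at 542 CPM and 55.3 to 72.1 CPM. The median log2 fold change was −0.93 for 11 cholangiocyte markers (2 positive, 9 negative), −0.73 for 8 MHC class II genes (1 and 7), −1.35 for 5 erythroid markers (0 and 5), −0.39 for 9 T and NK cell markers (1 and 8), −0.24 for 7 B and plasma cell markers (3 and 4) and −0.35 for 14 stellate cell markers (4 and 10). Without LF-C-2 these medians were −0.01, 0.16, 0.07, 0.31, 0.07 and −0.20. With library size alone and all libraries they were −0.54, −0.39, −0.94, −0.14, −0.02 and −0.22. Hepatocyte markers, 16 tested, had a median of −0.36 (4 positive, 12 negative) and −0.05 without LF-C-2, and their summed level was 81730 to 207200 CPM in LF-C and 91360 to 121800 CPM in LF-KO, so the label of liver held in every library.

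Few markers of tissues outside the liver passed the filter on low counts. Neutrophil markers had 2 of 9 members tested, adipocyte markers 3 of 9, pancreatic acinar markers 1 of 12 and skeletal muscle markers 1 of 9, all with negative log2 fold changes. Of the acinar list, 5 members are not listed in the low fat table. The summed level was 3.83 to 12.04 CPM in LF-C and 4.28 to 5.81 CPM in LF-KO for neutrophils, 22.6 to 135 and 20.9 to 39.4 CPM for the acinar list, and 0.825 to 5.61 and 0.596 to 1.47 CPM for muscle. The adipocyte sum, at 1511 to 3008 and 1616 to 1929 CPM, includes Car3, which hepatocytes express, while Adipoq was at or near 0 outside LF-C-2. The highest neutrophil, acinar and muscle sums of the controls were those of LF-C-2. Cela1 alone was at 36.4, 100.5, 22.4 and 30.2 CPM in LF-C, where the acinar sums were 37.1, 135, 22.6 and 30.65 CPM. In LF-KO it was at 20.8, 22.6, 38.8 and 32.0 CPM, where the sums were 20.9, 23.0, 39.4 and 32.3 CPM. The acinar genes other than Cela1 thus exceeded traces in LF-C-2 alone, and the source of these reads was not tested.

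**Figure D5:**
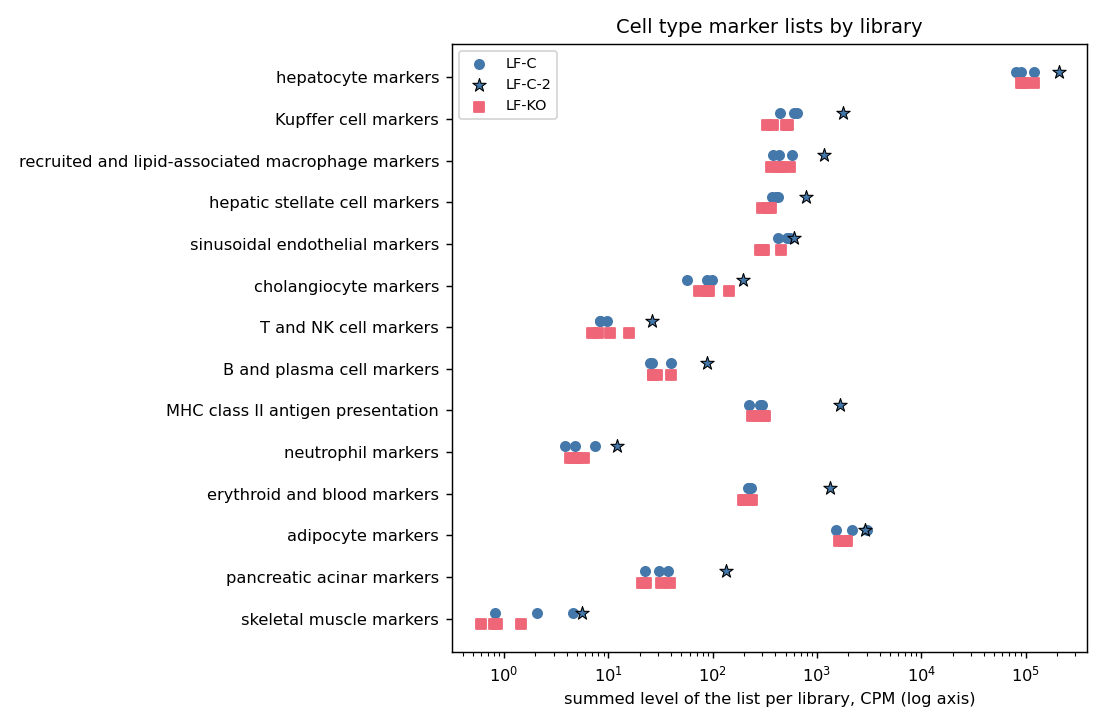
Summed level of each cell type marker list per library in CPM on a log axis, blue circles for LF-C, a blue star for LF-C-2 and red squares for LF-KO. LF-C-2 lies above all other libraries for Kupffer cell markers (1767 CPM) and MHC class II genes (1666 CPM), while the sinusoidal endothelial sums are 420 to 598 CPM in LF-C and 285 to 449 CPM in LF-KO.

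Macrophage genes did not move as one. In the list of recruited and lipid-associated macrophages 6 of 15 members were positive and 9 negative (median −0.17, or 0.37 without LF-C-2). Ccr2, the receptor that draws monocytes out of the marrow, was at 1.34, 1.45, 1.10 and 1.65 CPM in LF-C and 2.54, 4.33, 2.58 and 2.87 CPM in LF-KO, and Cx3cr1, the fractalkine receptor, was at 0.179, 0.900, 0.608 and 0.530 CPM and 1.13, 3.30, 1.12 and 1.40 CPM. Both had every LF-KO library above every control at low levels, with log2 fold changes of 1.15 ± 0.30 and 1.62 ± 0.53. Cd68, a lysosomal protein of macrophages, was on the other side, at 18.2 ± 10.8 and 8.60 ± 3.47 CPM with overlap. In the HF mice the log2 fold changes of Ccr2 and Cx3cr1 were −0.49 ± 0.28 and −0.90 ± 0.33 and that of Cd68 −0.81 ± 0.15, of which Cd68 alone was called (adjusted p = 0.00567 by edgeR).

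Outside the rule for naming, 2 genes are given for what leaving out controls did. Dusp1, an early-induced phosphatase of MAP kinases, was at 33.8, 9.06, 45.3 and 41.0 CPM in LF-C and 13.1, 15.4, 15.7 and 13.1 CPM in LF-KO. LF-C-2 lay below every LF-KO library and the other controls above them. Without LF-C-2, Dusp1 was the 1 gene that edgeR called, with a log2 fold change of −1.48 and an adjusted p of 0.0312, and on HF it was called lower too (−0.59 ± 0.16, adjusted p = 0.0343). Arid5b, a DNA-binding protein, was at 6.98, 5.26, 73.3 and 61.6 CPM in LF-C, apart by a pair of low and a pair of high libraries, and at 22.8 to 25.2 CPM in LF-KO. In all 8 libraries neither gene was called. The log2 fold change was −1.18 ± 0.41 for Dusp1 and −0.59 ± 0.72 for Arid5b (adjusted p 0.704 and 0.768 by edgeR). Without LF-C-1 and LF-C-2 together, a setting chosen after seeing the data, edgeR called Dusp1 and Arid5b, both lower. For Arid5b this removes the pair of low controls, and for Dusp1 leaving out LF-C-2 removes the only control below the LF-KO libraries. Both calls follow from these removals and are no result of the full comparison.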

How the data were processed

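Per the labels' protocols, Trizol extracts of whole liver were kept above an RNA integrity number of 7, and libraries without strand information (NEBNext Ultra, inserts of 250 to 300 bp) were sequenced as read pairs of 150 nt and mapped with STAR. HTSeq 0.6.1 and DESeq2 are named in the submitters' processing notes. The genome build is not given in the sources used here. The deposited read counts per gene, whole numbers per the file headers, were the input of all tests. The deposited FPKM values divide counts by gene length and library total, which a recomputation matched to within a relative deviation of 4.96e-12. Deposited log2 fold changes and the deposited adjusted p-values come from the authors' own comparison and were used to name the genes it called and to give their fold changes. The members and gene lists were chosen with earlier results of these data known.

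The main test was that of edgeR 4.0.16 under R 4.3.3 (TMM factors, filterByExpr, quasi-likelihood test) on the 8 low fat libraries, with Benjamini-Hochberg adjustment over all genes tested and a threshold of 0.05, all two-sided. Each SE was taken as the size of the log2 fold change over the root of its F statistic. The HF groups were fitted on their own 11 libraries and the difference between diets on all 19. DESeq2 1.42.0 and limma 3.58.1 (voom with quality weights) were alternatives, beside other scalings and filters, a replicate block and each library left out; leaving out LF-C-1 with LF-C-2 and an offset for gene length were chosen after seeing the data. Pparg was also tested by an exact permutation test. No test of gene lists was made. The genes named are Pparg and the target list, per direction the 10 genes with the smallest p at a mean of at least 5 CPM in a group and a regular symbol, up to 3 members of each list by p, and 5 for the difference between diets; others were chosen after their values were seen. Promoter windows and gene names came from RefSeq on GRCm38.p6 and overlaps from the deposited positions, and sequences were aligned with Biopython 1.88.

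Counted reads per library ranged from 11437875 to 20711869. Replicates of a group differed by far more than counting error, with a mean chi-square per gene of 26.8 or more in every pair. The labels give 1 mouse ID per library. The 19 library columns that occur in more than 1 deposited table held the same values.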

Additional observations from a re-analysis of the deposited data

Results flagged for a closer look

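Among the genes named, 180 sets of 4 libraries (90 genes in 2 groups) were searched for a library far from the other 3, by Dixon's test: its gap to the nearest library, over the range of the set, had to pass a critical value that chance passes in about 1 set in 20 by the test's definition. This was so for 19 sets. The genes were partly chosen on their values, and no rate of chance was measured for them. LF-C-2 was the library in 12 of them. In LF-C-2 the level was 117.1 CPM for Plin5, 27.7 for Fabp4, 600.3 for Gpd1, 51.5 for Acta2, 38.7 for Des, 262 for C1qb, 887 for Cd74, 542 for Hba-a1, 64.1 for Krt19, 1604 for Serpina1c, 28140 for Mup3 and 283 for Mup11, each above the other controls. The other controls lay at 48.7 to 56.1 CPM for Plin5, 191 to 259 CPM for Gpd1, 4.75 to 5.72 CPM for Des and 428 to 433 CPM for Serpina1c. Des and Serpina1c each overlap a gene on the other strand.

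The other 7 were spread over 6 libraries. Srebf1 was at 483 CPM in LF-C-1 and 213 to 231 CPM in the other controls, G0s2 at 117 CPM in LF-C-3 and 221 to 234 CPM in the others, and Gpr182 at 23.8 CPM in LF-C-4 and 37.5 to 38.8 CPM in the others. Fabp4 was at 16.2 CPM in LF-KO-2 and 5.92 to 7.21 CPM in the other LF-KO livers, Cx3cr1 at 3.30 CPM in LF-KO-2 and 1.13 to 1.40 CPM, Lox at 3.97 CPM in LF-KO-3 and 1.00 to 1.47 CPM, and Thbs1 at 5.02 CPM in LF-KO-1 and 2.71 to 3.00 CPM.

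The knockout effect differed between diets, HF minus LF, by −3.49 for Cidec, −3.31 for Plin4 and 6.09 for Mup7 on the log2 scale, each with an adjusted p under 0.05 in edgeR's test of the difference.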

How the results depend on the processing

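Counts of called genes on the low fat diet were 0 higher and 0 lower with other scalings, other filters, limma-voom, the gene length offset and 7 of the 8 single libraries left out. DESeq2 called 2 higher and 3 lower, a fit of all 19 libraries 1 higher (1700023H06Rik), edgeR without LF-C-2 1 lower (single libraries left out, 0 to 1) and without LF-C-1 and LF-C-2 together 2 lower. The labels name no pairing of mice by replicate number. Same-numbered deviations correlated at 0.09, 0.02, −0.20 and 0.21, within the range of differently numbered ones, −0.26 to 0.28. So few correlations cannot settle whether mice were paired. With the replicate block 0 genes were called (390 at an unadjusted p under 0.05). Pparg kept a positive log2 fold change in all settings, from 0.81 to 1.51 with single libraries left out and 1.05 with the replicate block, and passed in none. The difference between diets gave 29 genes, 15 with library size alone, 193 with DESeq2, 18 with the replicate block and 7 to 48 with single libraries left out. The HF comparison gave 1360 genes, 2245 with DESeq2, 786 with the replicate block and 704 to 1813 with single libraries left out. The cause of these moves was not tested.

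Signs turned for the genes that follow, none of them called by edgeR in all 8 libraries. With single libraries left out the log2 fold change ranged from −0.082 to 0.095 for Plin2, −0.48 to 0.34 for Plin5, −0.94 to 0.30 for Fabp4, −0.043 to 0.80 for Cd36, −0.45 to 0.69 for Lpl, −0.29 to 0.18 for Vldlr, −0.60 to 0.95 for Lpin1, −0.26 to 0.30 for Pck1 and −0.69 to 0.085 for Mup3. Without LF-C-1 and LF-C-2 together it was 0.31 for Plin5, 0.26 for Fabp4, 0.65 for Lpl, 0.071 for Gpd1, −0.38 for Pck1, 0.076 for Krt19, 0.12 for Mup3, 0.36 for Mup20 and 0.54 for Mup21. With library size alone it was 0.15 for Plin5, 0.21 for Lpl, 0.032 for Vldlr and 0.039 for Dgat2. With limma-voom it was 0.20 for Plin5, 0.033 for Fabp4, −0.25 for Cd36, 0.49 for Lpl, −0.20 for Pck1, 0.047 for Mup3, 0.089 for Mup20 and 0.30 for Mup21. The replicate block gave 0.13 for Lpl, 0.21 for Lpin1 and 0.24 for Arid5b, and the gene length offset 0.077 for Plin5 and 0.018 for Fabp4. List medians moved without LF-C-1 and LF-C-2 together to 0.22 (MHC class II), 0.43 (T and NK cells), 0.47 (acute phase), 0.18 (cholangiocytes), 0.075 (erythroid) and 0.059 (hepatocytes), and with the length offset to −0.65 (erythroid). With single libraries left out they ranged from −0.98 to 0.16 for MHC class II, −0.89 to 0.31 for T and NK cells and −1.62 to 0.074 for erythroid markers.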

Other observations

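Gene groups of liver metabolism and stress outside lipid handling held no called member either. Glucose and fructose metabolism had 8 positive and 12 negative members of 20 (median log2 fold change −0.04), the urea cycle 6 and 4 of 10 (0.07), and methionine and one-carbon metabolism 6 and 13 of 19 tested (−0.08). Pcx, which feeds pyruvate into glucose synthesis, was at 613, 733, 604 and 581 CPM in LF-C and 532, 414, 476 and 532 CPM in LF-KO, with every LF-KO library below every control (log2 fold change −0.37 ± 0.19). In the HF mice it was called lower, at −0.72 ± 0.17 (adjusted p = 0.0214 by edgeR). Cbs, the first enzyme of cysteine synthesis from homocysteine, was at 693 ± 392 CPM in LF-C, with LF-C-2 at 1240 CPM, and at 380 ± 47.2 CPM in LF-KO (log2 fold change −0.87, or −0.42 without LF-C-2).

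Acute phase genes had 7 positive and 10 negative members of 17 (median −0.16), the unfolded protein and integrated stress response 8 and 9 of 17 tested (0.00), the circadian clock 11 and 7 of 18 (0.14) and NRF2 targets 9 and 4 of 13 tested (0.27). Chac1, a stress-induced enzyme that breaks down glutathione, was at 6.30 ± 3.78 and 2.27 ± 1.42 CPM, and Gstm3, a glutathione transferase, at 29.0 ± 12.5 and 58.3 ± 35.2 CPM, both overlapping. Matrix and fibrosis genes had 11 positive and 17 negative members of 28 tested (−0.14), with Tgfb1 at 21.9 ± 14 and 10.1 ± 2.30 CPM and Thbs1 at 1.65 ± 0.85 and 3.38 ± 1.10 CPM. Cell cycle genes had 7 positive and 8 negative members of 15 tested (−0.17). Ccna2, a cyclin of DNA replication and early mitosis, was at 0.179, 0.554, 0.0608 and 0.354 CPM in LF-C and 0.846, 0.758, 0.926 and 0.734 CPM in LF-KO, without overlap at very low levels. Exosc9 overlaps Ccna2 and Lrfn4 overlaps Pcx on the other strand by their gene spans, and reads from shared bases of either pair cannot be assigned by strand.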
